A study of Mus musculus with 40 samples.

Results

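Tumor macrophage state genes were followed in bulk RNA sequencing of 39 primary mouse mammary tumors. The 10 genes, chosen by symbol, were Adgre1, Cd68, Cd163, Arg1, Nos2, Trem2, Spp1, Gpnmb, Folr2 and Msr1. All 10 were among the 14318 genes measured. Tumors came from the 4T1- and 66cl4-based models of triple-negative breast cancer (TNBC), in which luciferase-expressing cells of one or the other BALB/c mammary cancer line are placed in the milk ducts of lactating wild-type female BALB/c mice, which had been mated at the age of 8 w and were inoculated after their pups were weaned. Both lines grow in immunocompetent hosts. Each model had untreated tumors and tumors treated with anti-PD-1, chitin or chitin + anti-PD-1, all taken at 5 w p.i. Chitin was injected i.p. as 1 mg of small particles every 3 d, and the anti-PD-1 antibody at 200 µg per mouse. Groups held 5 tumors each, apart from untreated 4T1 with 4, so that 19 tumors were 4T1 and 20 were 66cl4. Each model is a single cell line, and line, cell dose and cohort cannot be told apart in any difference between the models.

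Macrophages arise from blood monocytes and from tissue-resident precursors, and those of a tumor are called tumor-associated macrophages (TAMs). Adgre1 encodes F4/80 and Cd68 a lysosomal glycoprotein, and both serve as general macrophage markers. Cd163 (a hemoglobin scavenger receptor), Folr2 (folate receptor beta) and Msr1 (a scavenger receptor for modified lipoproteins) are often read as marks of M2-like or resident-like TAMs. Arg1 and Nos2 encode arginase and the inducible nitric oxide synthase, enzymes that compete for arginine and that served as the classical M2 and M1 marks in mice. Trem2 (a lipid-sensing receptor), Spp1 (osteopontin) and Gpnmb (a lysosome-related glycoprotein) mark lipid-associated TAMs. Several of these transcripts are not exclusive to macrophages, since tumor cells can make Spp1 and Gpnmb, and neutrophils can make Arg1 and Nos2. In bulk tissue, fewer macrophages and less RNA per macrophage cannot be told apart.

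Libraries held between 5105898 and 14800352 reads assigned to genes. Levels are given as normalized read counts, that is, reads after division by each tumor's size factor. Differences and tests are on the deposited log2-like scale, which compresses changes of genes with few reads. All 9 macrophage markers of a separate list (among them Csf1r, Lyz2 and C1qa) were measured, and their summed normalized read count ranged from 7272 to 47650 in 4T1 tumors and from 40697 to 80638 in 66cl4 tumors. Transcripts of these macrophage markers were thus present in every tumor. Their presence does not show which cells the followed genes were read from, and this was not tested. The chitin + anti-PD-1 4T1 tumor 1 had the lowest mean Spearman correlation with the other tumors of its model, 0.944. It also had the lowest macrophage sum (7272) and the highest neutrophil sum (8802 against 348 to 2917 in the other 4T1 chitin-containing tumors).

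Windows around transcription start sites (250 bases before to 50 after, RefSeq, GRCm38.p6, which is the mm10 build of the files) were available for 6 of the 10 genes, Cd68, Cd163, Trem2, Spp1, Gpnmb and Folr2, with 8 windows in all. Those of Cd163, Folr2, Cd68 and Trem2 are printed because these 4 genes went along with Adgre1 across 4T1 tumors, as described further on. Capitals mark letters that match the searched motifs, on either strand.
Cd163, chr6:124304401-124304700, plus strand: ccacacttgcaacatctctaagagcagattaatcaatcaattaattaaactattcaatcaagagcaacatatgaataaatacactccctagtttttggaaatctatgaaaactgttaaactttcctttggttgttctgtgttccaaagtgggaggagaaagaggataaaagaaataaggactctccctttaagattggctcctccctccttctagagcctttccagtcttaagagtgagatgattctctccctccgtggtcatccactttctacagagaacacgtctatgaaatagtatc
Folr2, chr7:101857141-101857440, minus strand: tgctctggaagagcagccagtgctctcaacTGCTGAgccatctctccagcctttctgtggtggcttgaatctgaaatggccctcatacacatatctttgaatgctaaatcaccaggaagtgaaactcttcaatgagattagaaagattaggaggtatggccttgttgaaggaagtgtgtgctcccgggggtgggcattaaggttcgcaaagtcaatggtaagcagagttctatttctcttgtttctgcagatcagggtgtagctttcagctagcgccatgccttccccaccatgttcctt
Folr2, chr7:101845282-101845581, minus strand: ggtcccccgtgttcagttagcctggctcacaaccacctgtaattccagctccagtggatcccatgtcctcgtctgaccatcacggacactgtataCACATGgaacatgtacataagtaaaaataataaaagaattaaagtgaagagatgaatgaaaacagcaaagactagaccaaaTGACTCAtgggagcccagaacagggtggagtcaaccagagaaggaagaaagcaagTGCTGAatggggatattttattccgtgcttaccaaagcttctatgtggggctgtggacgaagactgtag
Cd68, chr11:69666121-69666420, minus strand: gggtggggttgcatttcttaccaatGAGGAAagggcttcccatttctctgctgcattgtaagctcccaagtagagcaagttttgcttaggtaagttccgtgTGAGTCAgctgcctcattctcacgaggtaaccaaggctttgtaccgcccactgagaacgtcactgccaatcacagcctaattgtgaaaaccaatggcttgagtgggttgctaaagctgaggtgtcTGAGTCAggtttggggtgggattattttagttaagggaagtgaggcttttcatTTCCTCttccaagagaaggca
Trem2, chr17:48346151-48346450, plus strand: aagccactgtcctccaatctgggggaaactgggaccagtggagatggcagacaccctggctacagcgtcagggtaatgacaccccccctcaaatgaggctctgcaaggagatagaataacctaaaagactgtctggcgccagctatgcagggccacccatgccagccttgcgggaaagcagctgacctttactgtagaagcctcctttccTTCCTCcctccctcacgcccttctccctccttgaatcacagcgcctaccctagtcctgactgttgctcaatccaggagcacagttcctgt
The searched letters were GAGGAA for the myeloid factor PU.1, TGACTCA or TGAGTCA for AP-1, CACGTG or CATGTG for the MITF and TFE family, TGCTGA for a MAF half-site and TTCNNNGAA for STAT factors. No motif match overlapped another in the printed windows. The PU.1 letters were found in 3 of the 8 windows (Cd68, Trem2 and 1 of the Spp1 windows), and 28.3% of all 32851 promoter windows of that length held them. AP-1 letters were found in 3 of the 8 (Cd68, Gpnmb and 1 of the Folr2 windows), against 5.20% of all windows. In the Cd68 window, AP-1 letters began at positions -149 and -24 from the start and PU.1 letters at positions -225 and 30. The MAF half-site was in both Folr2 windows, at positions -220 and -19, and in 19.5% of all windows. The MITF and TFE letters were in 1 window (Folr2, position -155), against 20.4% of all, and the STAT letters were in 0 of the 8, against 8.30% of all. The Cd163 window held none of the searched letters. A match is a run of letters, not a shown binding site.

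The first question was how TAM state genes differ between the 2 models. Folr2 and Cd163 were far higher in 66cl4 tumors, and Cd68, Adgre1, Msr1, Trem2 and Spp1 were higher there by smaller amounts, whereas Nos2, Arg1 and Gpnmb were higher in 4T1 tumors. Over all treatments, 10 of 10 members differed (limma, adjusted p under 0.05), 7 of them lower and 3 higher in 4T1. This count says little by itself, since 38.0% of all 14318 genes were called lower and 40.8% higher in 4T1. In size, the members stood further out, with a median absolute difference of 1.04 on the log2 scale against 0.28 over all genes. The members were chosen with earlier results of these data known, so these sizes are a description and not a test. The median signed difference was -0.81 for the members and 0.01 for all genes.

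**Figure D1:**
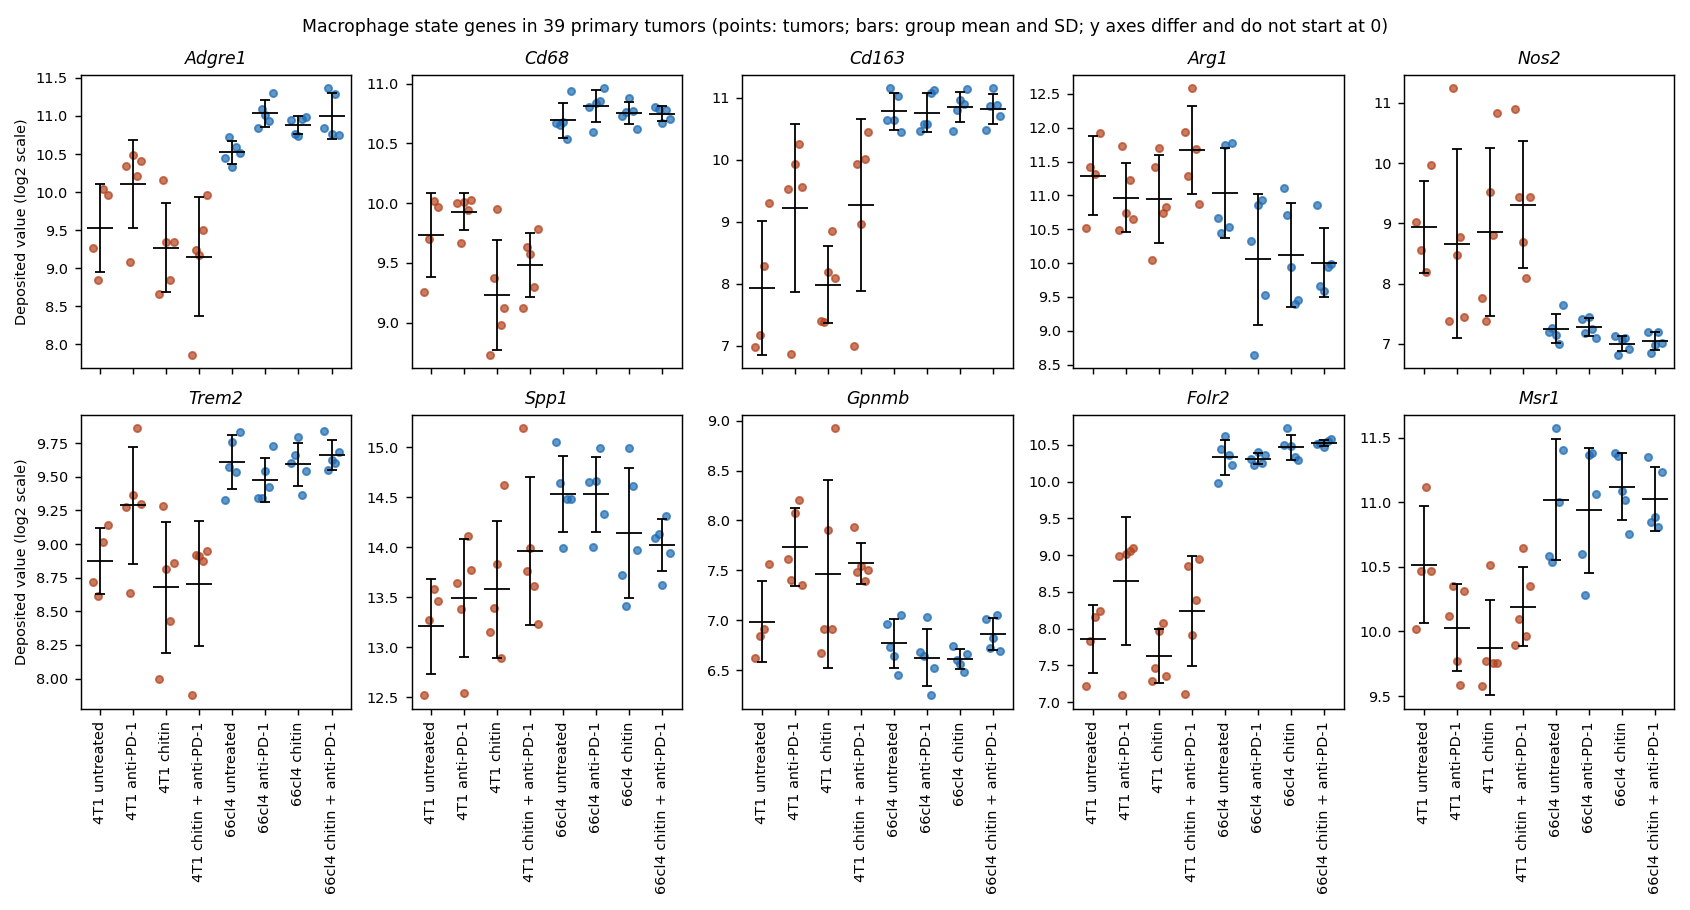
Deposited values (y axis, log2 scale) of the 10 genes in each of the 8 groups (x axis), with 1 point per tumor and bars for the group mean and SD. Folr2 and Cd68 of every 66cl4 tumor (blue) lie above those of every 4T1 tumor (orange), and Cd163 and Nos2 are spread widely within 4T1 groups and narrowly within 66cl4 groups.

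Folr2 (Entrez 14276, chromosome 7, 101839988 to 101857190) showed the widest gap on the deposited scale. It ranged from 36.1 to 425 normalized read counts in 4T1 tumors (median 153) and from 887 to 1563 in 66cl4 tumors (median 1244). The models did not overlap for this gene. The difference, 4T1 minus 66cl4, was -2.32 ± 0.14 on the log2 scale (SE, limma, adjusted p = 1.56e-16), and the mean normalized read count was 6.46-fold higher in 66cl4.

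Cd163 (Entrez 93671, chromosome 6, 124304636 to 124330529), the scavenger receptor that the study also stained in tissue, ranged from 21.4 to 1269 normalized read counts in 4T1 tumors (median 339). In 66cl4 tumors it ranged from 1265 to 2157 (median 1697). All but 1 4T1 tumor lay below every 66cl4 tumor, the exception being chitin + anti-PD-1 tumor 5 at 1269. The difference was -2.20 ± 0.25 (SE, limma, adjusted p = 1.09e-09), with a 4.02-fold higher mean count in 66cl4.

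The general markers followed the same direction with smaller gaps. Cd68 (Entrez 12514, chromosome 11, 69664213 to 69666170) ranged from 302 to 917 normalized read counts in 4T1 (median 684) and from 1358 to 1870 in 66cl4 (median 1616). It was the other member with no overlap between the models. Every 4T1 tumor lay below every 66cl4 tumor for 2 of the 10 members, against 7.98% of all genes, and above every one for 0 of 10, against 9.87% of all genes. Adgre1 (Entrez 13733, chromosome 17, 57358581 to 57483529) ranged from 119 to 1301 in 4T1 (median 526) and from 1154 to 2514 in 66cl4 (median 1708), and 16 of 19 4T1 tumors lay below every 66cl4 tumor. The differences were -1.16 ± 0.08 for Cd68 (SE, limma, adjusted p = 5.73e-16) and -1.35 ± 0.14 for Adgre1 (SE, limma, adjusted p = 1.82e-10). Set side by side, the differences of Folr2 and Cd163 (-2.32 and -2.20) were larger than those of the general markers. Whether the differences of the single genes differ from each other was not tested.

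Msr1, Trem2 and Spp1 were also lower in 4T1, with overlapping ranges. Msr1 (Entrez 20288, chromosome 8, 39543232 to 39642750) had a median of 969 normalized read counts in 4T1 and 1982 in 66cl4, a difference of -0.87 ± 0.11 (SE, limma, adjusted p = 1.99e-08). Trem2 (Entrez 83433, chromosome 17, 48346401 to 48352276) had medians of 358 and 643, and 17 of the 19 4T1 tumors lay below every 66cl4 tumor. A single 4T1 tumor, anti-PD-1 tumor 4 at 801, lay above all of them. Trem2 differed by -0.70 ± 0.10 (SE, limma, adjusted p = 8.13e-08). Spp1 (Entrez 20750, chromosome 5, 104435111 to 104441053) was the most abundant member, with a median of 12120 in 4T1 and 20354 in 66cl4 and a difference of -0.75 ± 0.17 (SE, limma, adjusted p = 0.00015). The highest value of Spp1 in all 39 tumors, 37164, nonetheless belonged to a 4T1 tumor, chitin + anti-PD-1 tumor 1. Osteopontin is secreted by tumor cells as well as by TAMs.

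Nos2 (Entrez 18126, chromosome 11, 78920787 to 78960226) went the other way. It ranged from 60.1 to 2298 normalized read counts in 4T1 (median 315) and from 19.3 to 89.4 in 66cl4 (median 39.7). In 16 of 19 4T1 tumors it lay above every 66cl4 tumor. The difference was 1.80 ± 0.27 (SE, limma, adjusted p = 2.67e-07) on the deposited scale. The ratio of the mean counts was 13.5, above the 6.46 of Folr2 in the other direction, and that of the medians was 7.92 (8.15 for Folr2). The mean of Nos2 in 4T1 includes 3 tumors at 2298, 1775 and 1681. Gpnmb (Entrez 93695, chromosome 6, 49036518 to 49058182) was a gene of few reads, from 1 to 36 per library in 66cl4 and from 9 to 290 in 4T1. Its medians were 70.6 normalized read counts in 4T1 and 13.2 in 66cl4, with a difference of 0.72 ± 0.13 (SE, limma, adjusted p = 6.12e-06). The mean count was 5.22-fold higher in 4T1, and the log2 difference was 2.10 with limma-voom and 1.70 at equal read depth. Arg1 (Entrez 11846, chromosome 10, 24915207 to 24927470) had medians of 2360 in 4T1 and 1212 in 66cl4, with a difference of 0.91 ± 0.21 (SE, limma, adjusted p = 0.00017). Its ranges, 925 to 6034 and 279 to 3382, overlapped widely, and only 3 4T1 tumors lay above every 66cl4 tumor. The marks of both classical states, Nos2 and Arg1, were thus higher in the same model.

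**Figure D2:**
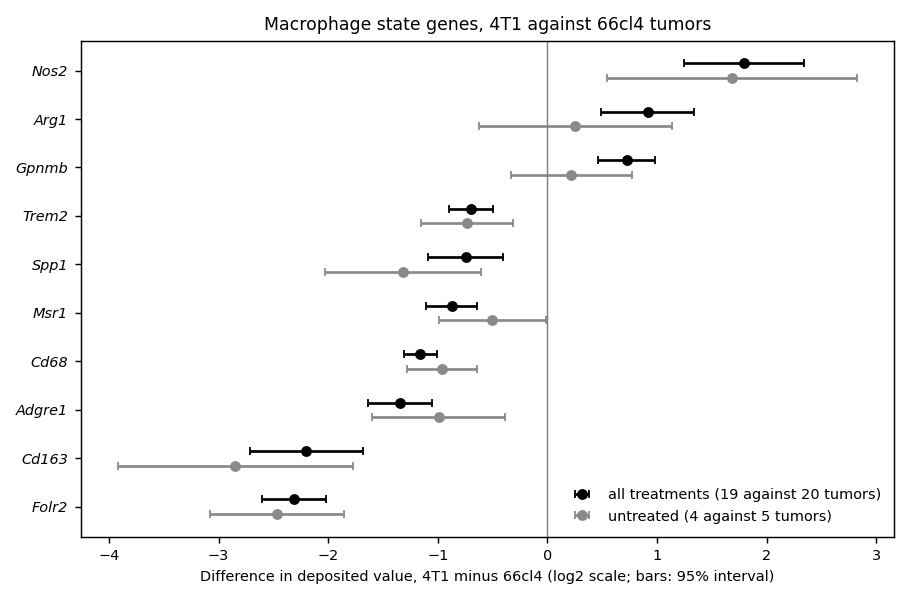
Differences of the deposited values (x axis, 4T1 minus 66cl4, log2 scale) with 95% intervals for the 10 genes (y axis), over all treatments (black) and between untreated tumors alone (grey). The black points run from -2.32 for Folr2 to 1.80 for Nos2, and the grey intervals of Arg1 and Gpnmb include 0.

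Between untreated tumors alone, 4 against 5, the call was made for 7 of 10 members (6 lower and 1 higher in 4T1), against 27.1% of all genes lower and 28.7% higher. Spp1 differed by -1.32 ± 0.35 (SE, limma, adjusted p = 0.00181) and Cd163 by -2.85 ± 0.53 (SE, limma, adjusted p = 2.58e-05). Nos2 differed by 1.69 ± 0.56 (SE, limma, adjusted p = 0.0113), a call lost without untreated 4T1 tumor 5 (1.34, limma, adjusted p = 0.0602). Arg1 was not called, at 0.25 with a 95% interval from -0.63 to 1.13 (limma, adjusted p = 0.639). Untreated Arg1 counts were 1331, 2600.4, 2417 and 3751 in 4T1 and 1502, 1271, 3317, 1351 and 3382 in 66cl4. These groups overlapped almost fully. Gpnmb, at 0.22 (95% interval -0.33 to 0.77), and Msr1, at -0.50 (limma, adjusted p = 0.0732), did not pass either. Msr1 did pass without untreated 4T1 tumor 4 (-0.70) and without untreated 66cl4 tumors 1 (-0.61) or 2 (-0.62). In untreated 4T1 tumors Gpnmb stood at 10.6, 20.3, 24.6 and 79.9, and in untreated 66cl4 tumors between 5.15 and 33.4. The untreated tumors are part of both comparisons.

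Levels of different genes can be set side by side only per length, here all exon bases annotated for a gene by GENCODE, which is longer than the main transcript for some genes. Per kilobase of exon, the median of Spp1 was 7354 normalized read counts in 4T1 and 12351 in 66cl4, the highest of the 10 in both models. In 4T1, Arg1 came next (1059), followed by Cd68 (544). In 66cl4, Cd68 (1286) and Folr2 (805) came next, and Folr2 exceeded Arg1 and Msr1 (544 and 312). Gpnmb was lowest in both models, at 10.8 and 2.02 per kilobase. Nos2 stood at 71.3 per kilobase in 4T1 and 9.0 in 66cl4, and Arg1 exceeded Nos2 on this scale in both models.

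The balance of Arg1 and Nos2 is described without a test. On the deposited scale, Arg1 minus Nos2 was 2.27 ± 1.10 (SD, n = 19) in 4T1 and 3.16 ± 0.74 (SD, n = 20) in 66cl4. By group, the means ran from 2.09 ± 1.44 (SD, n = 5) in 4T1 chitin to 2.36 ± 1.30 (SD, n = 5) in 4T1 chitin + anti-PD-1, a range well inside the spread between tumors. In 66cl4 they ran from 2.78 ± 0.88 (SD, n = 5) with anti-PD-1 to 3.79 ± 0.57 (SD, n = 5) in untreated tumors. Nos2 reads did not exceed Arg1 reads in any tumor, and in 4T1 chitin tumor 5 both genes stood at 1681 normalized read counts. The ratio of Arg1 to Nos2 counts ran from 1 to 43.5 in 4T1 and from 6.56 to 82 in 66cl4.

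Tumors of one treatment group differed far more in 4T1 than in 66cl4. The pooled SD within treatment groups was 1.16 for Cd163 in 4T1 and 0.28 in 66cl4, 1.26 and 0.17 for Nos2, 0.66 and 0.15 for Folr2, and 0.64 and 0.20 for Adgre1. The ratio of these SDs was 4.16 for Cd163, 7.34 for Nos2, 4.35 for Folr2 and 3.20 for Adgre1, against a median ratio of 1.67 over all genes. In 4T1, 99.7% of all genes had a smaller SD than Cd163 and 99.8% a smaller one than Nos2. The ratio was between 2.65 and 2.86 for Trem2, Gpnmb and Cd68 and 1.45, below that median, for Spp1. Arg1 and Msr1 were the members that did not vary more in 4T1, with SDs of 0.60 and 0.36 in 4T1 and 0.75 and 0.38 in 66cl4. These SDs are a description, without a test. The comparisons between the models used 1 common spread for both, although the spread differed.

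The 4T1 tumors with the highest Nos2 showed where this spread lies. Nos2 stood at 2298 normalized read counts in anti-PD-1 tumor 2, against 60.4, 237, 315 and 66.7 in the other tumors of that group. Cd163 of the same tumor was 21.4, against 608, 849.7, 1086 and 629.6. Folr2 was 36.1, against 383 to 425. In chitin + anti-PD-1 tumor 1, likewise, Nos2 was 1775 (156 to 567 in the others of the group), Cd163 29.4 (375 to 1269) and Folr2 37.6 (126 to 368). Both tumors therefore held the highest Nos2 and the lowest Cd163 and Folr2 of their groups. Chitin tumor 5 had Nos2 of 1681 with Cd163 of 157, which lay inside the range of its group, so that the pattern did not extend to that tumor. Untreated 4T1 tumors 1 and 2 had low Cd163 (28.4 and 42.2) with Nos2 of 398 and 256, both inside the range of untreated tumors. Macrophage markers moved with this, since their sum was 16230 in anti-PD-1 tumor 2 (42748 to 47650 in the others of the group) and 7272 in chitin + anti-PD-1 tumor 1 (23701 to 31519). The fibroblast sum was low in both as well, at 10246 (34862 to 108239) and 2725 (35886 to 130554). The part of these markers in the members' values was not tested.

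**Figure D3:**
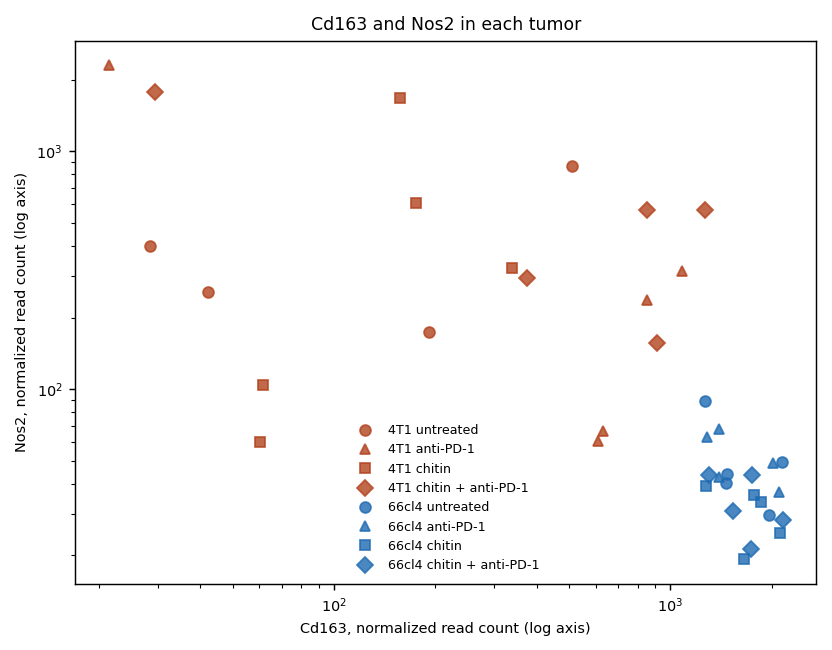
Normalized read counts of Cd163 (x axis, log) and Nos2 (y axis, log) in each of the 39 tumors, coloured by model (4T1 orange, 66cl4 blue) with a symbol per treatment. The 66cl4 tumors form a tight patch at Cd163 of 1265 to 2157 and Nos2 of 19.3 to 89.4, and the 4T1 tumors reach from 21.4 to 1269 for Cd163 and from 60.1 to 2298 for Nos2.

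Whether the other members went along with Adgre1 was tested within each model on deviations from the treatment group means (18 relations, permutation test with 100000 resamples within treatment groups, two-sided, Benjamini-Hochberg adjusted over the 18). In 4T1 (n = 19), 4 members correlated with Adgre1 by Pearson's r, and 2 of them, Trem2 and Cd68, by Spearman's rho as well. Trem2 was the closest, with Pearson's r of 0.88 (permutation p = 0.00019, adjusted p = 0.00342) and Spearman's rho of 0.75 (permutation p = 0.00075, adjusted p = 0.0135). Without the 2 tumors farthest from the median of Adgre1, r for Trem2 was 0.77 (permutation p = 0.00284). Cd163 had r of 0.74 (permutation p = 0.00577, adjusted p = 0.0304) and rho of 0.63 (permutation p = 0.0117, adjusted p = 0.0704). Folr2 had r of 0.71 (permutation p = 0.00676, adjusted p = 0.0304) and rho of 0.55 (permutation p = 0.0224, adjusted p = 0.101), and Cd68 had r of 0.63 (permutation p = 0.00603, adjusted p = 0.0304) and rho of 0.70 (permutation p = 0.00489, adjusted p = 0.044). Without those 2 tumors, r was 0.44 for Cd163 (permutation p = 0.15) and 0.40 for Folr2 (permutation p = 0.177). These relations were thus weaker without them. Leaving them out also shortens the range of Adgre1, so whether the relations rest on those tumors cannot be told. For Cd68, r was then 0.56 (permutation p = 0.0728), close to its value over all 19 tumors. Nos2 had r of -0.49 (permutation p = 0.0506, adjusted p = 0.182) and rho of -0.37 (permutation p = 0.141, adjusted p = 0.361), and -0.09 without them. Arg1, Spp1, Gpnmb and Msr1 lay between -0.24 and 0.20.

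In 66cl4 (n = 20), 0 of 9 members correlated with Adgre1 past the threshold. The strongest relation was that of Arg1, with r of -0.38 (permutation p = 0.0848, adjusted p = 0.254) and rho of -0.40 (permutation p = 0.0604, adjusted p = 0.217). Trem2 had r of -0.15 (permutation p = 0.522, adjusted p = 0.83) and Cd163 0.31 (permutation p = 0.213, adjusted p = 0.479). The difference between the models' correlations was not tested.

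Pairs among the members are given as a description. In 4T1 tumors Cd163 and Folr2 had r of 0.93, the highest of the 45 pairs, and in 66cl4 tumors r of -0.01. Arg1 and Msr1 had r of 0.43 in 4T1 and 0.82 in 66cl4. Nos2 and Gpnmb had r of 0.57 and 0.66, and Cd68 and Trem2 0.63 and 0.59, so that these pairs were similar in the 2 models. The points of a model share its cell line, and a correlation in bulk tissue also carries the share of macrophages in each tumor.

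**Figure D4:**
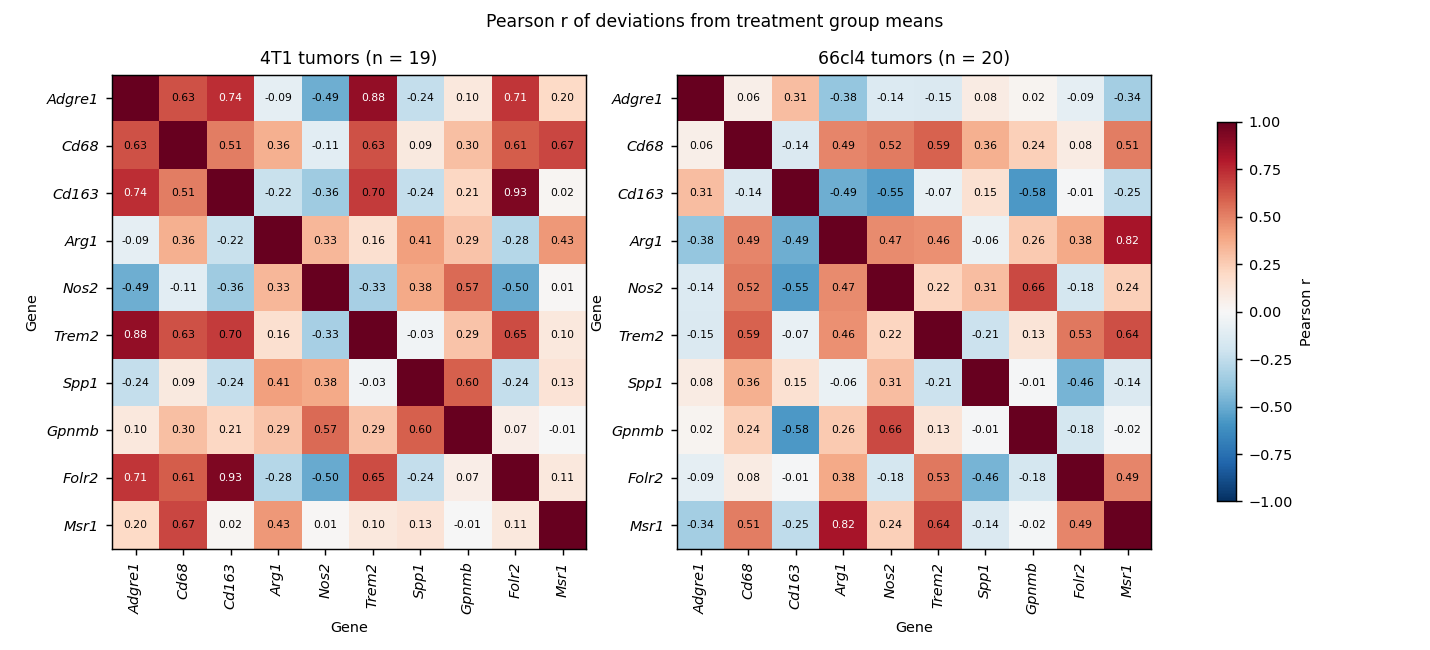
Pearson's r between the 10 genes (both axes) over deviations from treatment group means, for 19 4T1 tumors (left) and 20 66cl4 tumors (right), from -1 (blue) to 1 (red). In 4T1, Adgre1, Cd163, Trem2 and Folr2 form a block with r between 0.65 and 0.93, and in 66cl4 the highest r is 0.82, between Arg1 and Msr1.

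The genes most like each member were those with the highest smaller r of the 2 models (over 19 and 20 tumors, out of all named genes). For Adgre1 these were Ms4a7 (0.87), Tlr12 (0.83) and Pik3ap1 (0.83), and for Trem2 Hebp1 (0.81), Ctsb (0.79) and Alox5ap (0.76). Cd68 was followed by Runx3 (0.76), Cxcr4 (0.73) and Ctsb (0.71). Ctsb, the lysosomal protease cathepsin B, was thus named for both Cd68 and Trem2. Folr2 had Prxl2b (0.81), Ccl9 (0.73) and Adora2b (0.72), and Cd163 had Man2b1 (0.74), Cd300ld4 (0.73) and Man1c1 (0.68). Msr1 was closest to Itgam (0.78), the integrin chain CD11b, Pilra (0.77) and Emilin2 (0.69). Arg1 was followed by Srgn (0.70), Gla (0.67) and Ikbke (0.63), and Nos2 by the stress-induced transcription factor Atf3 (0.71), the creatine transporter Slc6a8 (0.65) and Gpat3 (0.65). Spp1 had Pdgfa (0.71), Atf5 (0.70) and Asb2 (0.70), and Gpnmb had Lax1 (0.62), Ip6k3 (0.62) and Slc48a1 (0.62). With so many genes searched, such values are a ranking and not a test.

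The second question was whether chitin, given to block chitinase-like proteins, changed these genes. In 4T1, the general markers were lower in the chitin-containing arms, but no member passed the threshold. Called genes were 0 of 14318 (0.0%) with limma and 0 with limma-voom, and 1042 genes had an unadjusted p under 0.05. Of the members, 3 of 10 had an unadjusted p under 0.05, against 7.28% of all genes. Untreated tumors had Cd68 of 485, 704, 911 and 872 normalized read counts, and tumors given anti-PD-1 alone had 898, 684, 902, 854 and 917. With chitin it was 302, 538, 860.0, 382 and 431, and 433, 667, 637, 503 and 754 with chitin + anti-PD-1. The 4 lowest tumors, 302 to 433, had all received chitin, but the groups overlapped. The difference was -0.47 ± 0.14 (SE, 95% interval -0.77 to -0.18, limma, adjusted p = 0.58). Adgre1 (-0.61 ± 0.27, SE, limma, adjusted p = 0.665) and Trem2 (-0.39 ± 0.18, SE, limma, adjusted p = 0.685) pointed the same way. For Cd163 the difference was 0.05 with a wide interval from -0.97 to 1.06, and 0.06 in 66cl4 (-0.17 to 0.30). The study reported less CD163 staining in sections of both models with chitin, alone or with anti-PD-1. By flow cytometry, it also reported fewer TAMs, gated on the protein of Adgre1 among others, and fewer M2 TAMs in both models. Staining and gating read protein, and protein was not measured here. From the RNA data, the study described selected innate immunity genes as lower with chitin, Csf1r and Itgam among them. In the 4T1 chitin-containing arms, markers of other cells were lower as well. At an unadjusted p under 0.05, 7 of 7 T cell markers (median -0.47) and 5 of 7 dendritic cell markers (-0.42) were lower, beside 7 of 9 macrophage markers (-0.61). The anti-PD-1 arm was the high one in this contrast. Median T cell sums were 423 untreated, 370 with chitin, 1222 with anti-PD-1 and 284 with both. Those of dendritic cells were 774, 805, 1347 and 579 in the same order, and those of macrophages 26853, 22305, 43126 and 29549. None of these markers was called, and their part in the members' values was not tested. Both models fitted together, which shares the spread with the less variable 66cl4 tumors, would call Cd68 (limma, adjusted p = 0.0374).

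In 66cl4, 0 of 10 members were called in the chitin-containing arms (0.0% of all genes with limma and 0 genes with limma-voom, 2238 genes having an unadjusted p under 0.05). Untreated tumors had Nos2 counts of 43.8, 49.3, 40.4, 29.6 and 89.4, and tumors given anti-PD-1 alone had 62.9, 42.6, 67.7, 48.8 and 37.0. With chitin they were 39.0, 19.3, 33.6, 36.0 and 24.9, and in the combined arm 43.7, 21.2, 28.2, 43.5 and 30.9. These are 23 to 67 reads per library, and the ranges overlapped. The difference was -0.24 ± 0.07 (SE, limma, adjusted p = 0.144). Spp1 differed by -0.45 ± 0.18 (SE, limma, adjusted p = 0.239) and Folr2 by 0.18 ± 0.06 (SE, limma, adjusted p = 0.197). For Cd68 the interval, -0.11 to 0.10, held the difference near 0.

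**Figure D5:**
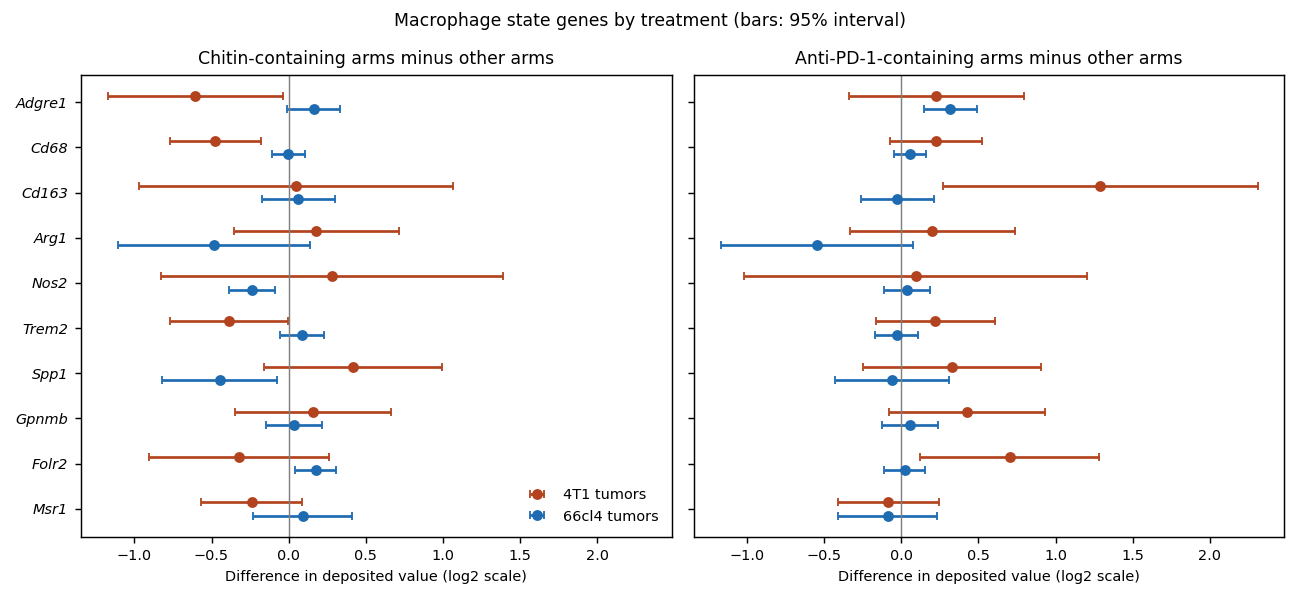
Differences of the deposited values (x axis, log2 scale) with 95% intervals for the 10 genes (y axis), between chitin-containing and other arms (left) and between anti-PD-1-containing and other arms (right), in 4T1 (orange) and 66cl4 (blue). The farthest point is Cd163 in 4T1 with anti-PD-1, at 1.29 with an interval from 0.27 to 2.31, and intervals in 4T1 are mostly wider than in 66cl4.

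The third question was the effect of anti-PD-1. In 4T1, Cd163 and Folr2 had the largest differences of the members, without passing the threshold. Called genes were 0 of 14318 (0.0%) with limma and 0 with limma-voom, and 1001 genes had an unadjusted p under 0.05. Untreated tumors had Cd163 of 28.4, 42.2, 192 and 509 normalized read counts, and tumors given chitin alone had 61.6, 60.1, 176, 339 and 157. With anti-PD-1 it was 608, 21.4, 849.7, 1086 and 629.6, and in the combined arm 29.4, 852, 375, 909 and 1269. In 7 of the 10 tumors with anti-PD-1 it was above every one of the 9 others, of which the highest was untreated tumor 5 at 509. Those not above stood at 21.4, 29.4 and 375, the first 2 being among the tumors with high Nos2 described above. Group means on the deposited scale were 7.94 ± 1.08 (SD, n = 4) untreated, 7.98 ± 0.62 (SD, n = 5) with chitin, 9.22 ± 1.35 (SD, n = 5) with anti-PD-1 and 9.27 ± 1.38 (SD, n = 5) with both, so that each neighbouring pair in this order differed by less than the larger of its SDs. In 66cl4 all 4 means lay between 10.76 and 10.85. The difference between anti-PD-1-containing and other 4T1 arms was 1.29 ± 0.49 (SE, 95% interval 0.27 to 2.31, limma, adjusted p = 0.702). It was 1.59 without anti-PD-1 tumor 2 (limma, adjusted p = 0.134) and 1.57 without chitin + anti-PD-1 tumor 1 (limma, adjusted p = 0.453).

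Folr2 in 4T1 was also lowest in 2 of the tumors with high Nos2, anti-PD-1 tumor 2 and chitin + anti-PD-1 tumor 1. In chitin tumor 5, where Nos2 was high as well (1681), Folr2 was 57.3, inside the range of its group. Untreated tumors had 46.1, 114, 168 and 183 normalized read counts, and tumors given chitin alone 51.2, 69.4, 135, 153 and 57.3. With anti-PD-1 the counts were 383, 36.1, 394, 408 and 425, and in the combined arm 37.6, 337, 126, 216 and 368. The difference was 0.70 ± 0.28 (SE, 95% interval 0.12 to 1.29, limma, adjusted p = 0.702). In 7 of the 10 tumors with anti-PD-1 the count was above that of every one of the 9 others, and the remaining 3 stood at 36.1, 37.6 and 126. The share of all genes with such an arrangement was not computed, for Folr2 or for Cd163. Of the members, 2 of 10 had an unadjusted p under 0.05, against 6.99% of all genes. With weights that reduce the influence of variable tumors, the anti-PD-1 group alone differed from untreated 4T1 tumors by 1.17 for Folr2 (limma, adjusted p = 0.0282) and 1.72 for Cd163 (limma, adjusted p = 0.0498). In that fit 960 genes were called.

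Markers of other cells also differed in 4T1 arms with anti-PD-1, not alike in both of these arms, although 0 of them were called. In the anti-PD-1-containing arms, 8 of 8 neutrophil markers were higher, all at an unadjusted p under 0.05, with a median of 0.61. For anti-PD-1 alone against untreated tumors, 6 of 7 T cell markers (median 0.71), 5 of 7 dendritic cell markers (0.69), 4 of 5 adipocyte markers (1.73) and 3 of 3 measured markers of lactating epithelium (1.99) were higher at an unadjusted p under 0.05. The macrophage markers were higher in 9 of 9 cases, 0 of them at that level. With both agents, the median sums of T cell (284) and dendritic cell markers (579) lay below those of untreated tumors (423 and 774). Those of adipocytes (1143 against 377) and lactating epithelium (265 against 21.3) lay above. The median neutrophil sum was 1194 untreated, 752 with chitin, 1349 with anti-PD-1 and 2572 with both. In the anti-PD-1 tumor 2, with low Cd163 and Folr2, the adipocyte sum was 46.8 normalized read counts, against 1443 to 7756 in the others of its group. The part of these cells in the values of Cd163 and Folr2 was not tested.

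In 66cl4, the anti-PD-1-containing arms had 0 of 10 members called (0.0% of all genes with limma and 0 genes with limma-voom, 440 genes having an unadjusted p under 0.05). Cd163 differed by -0.03 there, with an interval from -0.26 to 0.21. Adgre1 was the member with an unadjusted p under 0.05, at 0.32 ± 0.08 (SE, limma, adjusted p = 0.998).

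Each arm was also set against untreated tumors, and these comparisons share their controls. In 66cl4, untreated tumors had Adgre1 of 1265, 1568, 1154, 1417 and 1337 normalized read counts. The counts were 1706, 2049, 1934, 1822 and 2387 with anti-PD-1, 1853, 1612, 1569, 1867 and 1892 with chitin, and 1711, 2514, 1605, 2382 and 1593 with chitin + anti-PD-1. All 15 treated tumors lay above all 5 untreated tumors, the closest being 1569 against 1568, and 0.0279% of all genes (4 genes) had that arrangement. The differences were 0.51 ± 0.12 with anti-PD-1 (SE, limma, adjusted p = 0.895), 0.36 ± 0.12 with chitin (SE, limma, adjusted p = 0.247) and 0.48 ± 0.12 with both (SE, limma, adjusted p = 0.214). None passed the threshold over all genes, and the overlap was looked at after the values were seen.

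Arg1 in 66cl4 pointed the other way, with overlap. Untreated tumors had 1502, 1271, 3317, 1351 and 3382 normalized read counts and those with anti-PD-1 1153, 279, 1725, 1830.3 and 615. With chitin the counts were 2087, 1542, 854, 545 and 576, and in the combined arm 1727, 680.3, 646, 860.3 and 882. Treated tumors reached from below the untreated range into it, and the 2 highest tumors were untreated. The differences were -0.98 ± 0.42 (SE, limma, adjusted p = 0.911), -0.92 ± 0.42 (SE, limma, adjusted p = 0.416) and -1.03 ± 0.42 (SE, limma, adjusted p = 0.396), in the same order of arms. That with anti-PD-1 was -0.62 without anti-PD-1 tumor 2. Genes called were 0.0% in each of these 3 comparisons by limma and 0 by limma-voom, and 767, 1639 and 1516 genes had an unadjusted p under 0.05. Nos2 with chitin (-0.24 ± 0.10, SE, limma, adjusted p = 0.357) and Folr2 with both (0.20 ± 0.09, SE, limma, adjusted p = 0.453) were the other members with an unadjusted p under 0.05. They were -0.15 without untreated tumor 5 and 0.11 without untreated tumor 1.

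In 4T1, the arms against untreated tumors gave 0 of 10 members called each (0.0% of all genes by limma and 0 by limma-voom, the unadjusted p being under 0.05 for 1273, 397 and 367 genes with anti-PD-1, chitin and both). Msr1 was 911, 1290.0, 2089.6 and 1284 in the untreated group and 635, 746, 1335, 737 and 737 after chitin, a difference of -0.64 ± 0.23 (SE, limma, adjusted p = 1). With anti-PD-1 it was 983, 1179, 749, 642 and 1141, a difference of -0.49 ± 0.23 (SE, limma, adjusted p = 0.548), or -0.29 without untreated tumor 4. The untreated and treated ranges overlapped. Cd68 differed from untreated tumors by -0.50 with chitin (95% interval -0.94 to -0.07) and -0.25 with both agents (-0.68 to 0.18). For Adgre1 these differences were -0.26 (-1.08 to 0.57) and -0.38 (-1.20 to 0.45). With anti-PD-1 alone, an arm that the chitin-containing arms were also set against, Adgre1 differed by 0.58 (-0.25 to 1.40). Gpnmb, given above for untreated tumors, was 86.1, 62.9, 154, 177 and 57.7 with anti-PD-1, a difference of 0.74 ± 0.35 (SE, limma, adjusted p = 0.555). Of these 5 tumors, 3 lay above the highest untreated one. With both agents, 0 of 10 members had an unadjusted p under 0.05.

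The last question was whether the models responded differently. For chitin, the difference of the differences (4T1 minus 66cl4) called 0 of 10 members, against 0.021% of all genes higher and 0.0768% lower, and 1887 genes had an unadjusted p under 0.05. Of the members, 4 had an unadjusted p under 0.05. Cd68 (-0.47 ± 0.15, SE, limma, adjusted p = 0.142), Adgre1 (-0.77 ± 0.29, SE, limma, adjusted p = 0.218) and Trem2 (-0.47 ± 0.20, SE, limma, adjusted p = 0.283) were lower in 4T1 with chitin relative to 66cl4, and Spp1 (0.87 ± 0.34, SE, limma, adjusted p = 0.244) was higher. Without the 4T1 anti-PD-1 tumor 2, Adgre1 (-0.90, limma, adjusted p = 0.0432) and Cd68 (-0.51, limma, adjusted p = 0.0455) passed the threshold. In that fit 498 genes were called lower and 179 higher.

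Among 15 core macrophage and monocyte genes, 2 were called in this comparison, both lower. Aif1, the calcium-binding protein IBA1, differed by -1.05 ± 0.20 (SE, limma, adjusted p = 0.0285), from -0.71 in 4T1 and 0.34 in 66cl4. Fcer1g, a signalling adaptor of Fc receptors, differed by -0.77 ± 0.14 (SE, limma, adjusted p = 0.0222), from -0.52 in 4T1 and 0.25 in 66cl4. On leaving out 1 tumor at a time, the call of Aif1 was lost in 13 of 39 fits (limma, adjusted p up to 0.0646) and that of Fcer1g in 1, without untreated 4T1 tumor 5. Of the 15, 14 were lower in 4T1 relative to 66cl4, with a median of -0.77 against 0.01 over all genes. Markers of other cells had low medians too, with -0.59 for 7 T cell genes, -0.56 for 7 dendritic cell genes and -0.60 for 5 skeletal muscle genes, of which 0 were called. Their part was not tested. For anti-PD-1, 0 of 10 members were called, against 0.0% of all genes higher and 0.00698% lower (820 genes at an unadjusted p under 0.05). Cd163 differed by 1.32 ± 0.50 (SE, limma, adjusted p = 0.779) and Folr2 by 0.68 ± 0.29 (SE, limma, adjusted p = 0.779).

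Further genes of the pathways around the members were taken from lists, chosen like the members with earlier results of these data known, and are given for 4T1 against 66cl4 over all treatments. Their counts stand beside shares of 40.8% called higher and 38.0% called lower over all genes. No gene of these lists was called in any comparison of treatments within a model. Of 15 core macrophage and monocyte genes, 12 were lower and 1 (Ctss) higher in 4T1, with a median of -0.62 (0.01 over all genes). Lyz2, the lysozyme of myeloid cells (-2.03), Itgam (-1.83) and Cd14, a coreceptor for bacterial lipopolysaccharide (-1.55), had the largest differences. Of 15 genes of alternative activation and resident-like macrophages, 8 were lower and 2 higher in 4T1, with a median of -0.92. Lyve1, a hyaluronan receptor that lymphatic endothelium also carries, had a median of 109 normalized read counts in 4T1 and 2853 in 66cl4 (-3.98). Mrc1, the mannose receptor CD206, had 1493 and 8400 (-2.70), and Stab1, a scavenger receptor, 1601 and 9376 (-2.47). The exceptions were Il10 (0.47) and the chitinase-like protein gene Chil3 (1.06), which were higher in 4T1.

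Of 15 inflammatory and interferon gamma-response genes, 10 were higher and 3 lower in 4T1, with a median of 0.60. H2-Ab1, an MHC class II chain (2.11), and Ciita, the activator of MHC class II genes (1.88), were among those higher, on the side of Nos2. The costimulatory genes Cd80 (-0.25) and Cd86 (-0.22) were lower. Tnf (-0.09) was the remaining gene called lower, a call lost in 23 of the 39 fits that leave out 1 tumor. Of 10 genes of arginine and nitric oxide metabolism, 5 were higher and 4 lower, counts near the shares over all genes, with a median of 0.10. Ass1, which regenerates arginine from citrulline together with Asl, stood at 455 and 30.3 normalized read counts (2.12), the arginine transporter gene Slc7a2 at 257 and 40.7 (1.26), and Odc1, which makes putrescine, at 2010 and 1348 (0.57). Asl itself was lower in 4T1 (-0.54).

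Of 13 lipid-handling and lysosomal genes, 4 were higher and 6 lower in 4T1, with a median of -0.34, counts that again lie near those shares. The proteases Ctsl (-0.97) and Ctsb (-0.85) were lower, as were Trem2 and Spp1, and the lipoprotein lipase gene Lpl was higher (1.06), as was Gpnmb, although limma-voom did not call Lpl (adjusted p = 0.0697). Adipocytes also make Lpl, and 5 of 5 adipocyte markers were higher in 4T1. Of 8 osteopontin receptor genes, 3 were higher, namely Itgb3 (1.32), Cd44 (0.88) and Itgb1 (0.56), and 2 lower, Itga4 (-0.56) and Itga9 (-0.40), no more than the shares over all genes. Markers of other cells moved with the model as well. In 4T1, 8 of 8 neutrophil, 6 of 7 T cell, 6 of 6 epithelial and 3 of 7 dendritic cell markers were higher, and 7 of 9 macrophage markers were lower. The summed neutrophil level was 348 to 8802 normalized read counts in 4T1 and 225 to 448 in 66cl4, and the fibroblast sum 2725 to 130554 and 5996 to 15332. The part of these cells in the members' differences was not tested.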

How the data were processed

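RNA was sequenced from 39 flash frozen primary tumors. The authors prepared stranded TruSeq libraries from 250 ng RNA, used HISAT2 for alignment to mm10 and summarizeOverlaps for counting, kept expressed genes and deposited values on a log2 scale from the variance stabilizing transformation of DESeq2. Versions and annotation are not given in the sources used here. An untreated 4T1 tumor that the study removed for RNA degradation is not analysed here. The transformation was inverted from its lowest value, 6.05, and 100.0% of values gave whole reads (tolerance 0.01). Reads ranged from 5105898 to 14800352 per tumor. The study inoculated a pair of mammary glands in each mouse, so tumors of a group may share a mouse. The labels do not tie tumors to mice, so p-values measure the spread between these tumors and not between mice.

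Comparisons used limma 3.58.1 (R 4.3.3; trend, Benjamini-Hochberg over 14318 genes, threshold 0.05), separately in each model for treatments and over all 8 groups for differences between models, and tested on simulated data. Correlations used permutations in Python 3.11.15. Members and lists were chosen with earlier results of these data known. From each list, up to 3 genes with the largest difference past the threshold between models were named. A gene that this rule names is not reported here. Other genes named were chosen after their values were seen. Alternatives were a low-value filter (lowest 25% left out), no trend, compared groups alone, median centring, both models in 1 fit, tumor weights, quantile normalization, a replicate block, limma-voom, equal read depth and leaving out each tumor. Same-numbered tumors were checked for shared deviations.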

Additional observations from a re-analysis of the deposited data

Results flagged for a closer look

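In 80 tests for a tumor far from the rest of its group (10 genes in 8 groups), 7 values stood apart by Dixon's criterion. Chance gives about 1 in 20 for a single test. The tests were not independent, since several of the 7 values came from the same tumor, so the count cannot be set against that rate. All 7 were in 4T1 groups. In anti-PD-1 tumor 2, Adgre1 was 9.09 on the deposited scale (10.21 to 10.48 in the other tumors), Cd68 9.66 (9.94 to 10.03), Cd163 6.86 (9.52 to 10.25) and Folr2 7.09 (8.99 to 9.10). In chitin + anti-PD-1 tumor 1, Trem2 was 7.88 (8.87 to 8.95) and Gpnmb 7.93 (7.40 to 7.54). Msr1 of chitin tumor 3 was 10.52 (9.57 to 9.77), with 1335 normalized read counts against 635 to 746.

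The chitin difference differed between the models by a test of the difference itself (limma, adjusted p under 0.05) for 2 macrophage genes, Aif1 (-1.05) and Fcer1g (-0.77), the negative sign standing for a lower value in 4T1 relative to 66cl4.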

How the results depend on the processing

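Of 778 values recomputed under other settings, 770 kept their direction and side of the threshold, 6 newly passed, 2 no longer passed (Lpl with limma-voom, and Aif1 at equal read depth, -1.46, limma, adjusted p = 0.0652) and 0 reversed. Members called rose from 0 to 1 for chitin-containing 4T1 arms with both models in 1 fit, to 2 for anti-PD-1 against untreated 4T1 tumors with tumor weights and to 1 for the chitin difference between models with tumor weights. All genes called in these fits numbered 58, 960 and 1004, against 0, 0 and 14. Tumor weights also gave 297 genes for chitin-containing 4T1 arms, 41 for anti-PD-1-containing 4T1 arms, 185 for chitin-containing 66cl4 arms and 35 for the anti-PD-1 difference, against 0, 0, 0 and 1. With both models in 1 fit, 39 genes were called for anti-PD-1-containing 4T1 arms, 60 for anti-PD-1 against untreated 4T1 tumors and 3 for both agents. For chitin-containing 66cl4 arms, 16 genes were called with the replicate block (2 for chitin and 7 for both agents against untreated tumors, and 1 for both agents in 4T1), 10 at equal read depth and 6 with the low-value filter. For the chitin difference, 39 were called with quantile normalization, 8 with the low-value filter and 2 at equal read depth. Between untreated tumors, Msr1 passed with quantile normalization (-0.60, limma, adjusted p = 0.0326). Leaving out 1 tumor at a time gave 10 members for the models over all treatments, 6 to 8 between untreated tumors, 0 to 2 for the chitin difference and 0 in the other 11 comparisons. All genes called for the chitin difference then ranged from 0 to 677, the highest without 4T1 anti-PD-1 tumor 2. Without that tumor, 80 genes were called for anti-PD-1 against untreated 4T1 tumors, 13 for anti-PD-1-containing 4T1 arms and 15 for the anti-PD-1 difference. Without untreated 66cl4 tumor 3, 269 genes were called for chitin-containing 66cl4 arms and 25 for chitin against untreated tumors.

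The low-value filter left 9 of 10 members called between the models, because Gpnmb was removed by it. Same-numbered tumors showed no common deviation (median correlation 0.01 over 57 pairs, from -0.39 to 0.54, 22 of them over 0.1). The labels do not say what the numbers mark, and this check cannot exclude a pairing. With the number as a replicate block, members called were 10 between the models, 7 between untreated tumors and 0 elsewhere, and genes called for the chitin difference were 104. Adgre1 relations past the threshold numbered 4, 4 and 4 on deviations (deposited, quantile-normalized and log2 normalized counts) and 5 on raw values. Few reads limit Gpnmb and, in 66cl4, Nos2.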
